A study of Mus musculus with 24 samples.

Results

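Loss of Mll2 in mouse embryonic stem cells that already lacked Mll1 was described at day 0, by setting 3 double-KO libraries against 3 Mll1-KO libraries. These 6 libraries, taken by genotype and day from the deposited table of normalized counts, were part of 24 polyA RNA-seq libraries from 4 genotypes and 2 days, with 3 libraries in each of 8 groups. Double-KO cells lacked Mll1 and Mll2 and had received 4-hydroxytamoxifen (4-OHT), the compound that switches on the inducible Cre, at 800 nM for 48 h. Mll1-KO cells were untreated. Both came from a line with a Cre-inducible Mll2 deletion in which Mll1 had been deleted by CRISPR editing, and 1 line was named per genotype, with no statement on clones. All day 0 cells grew on gelatin with LIF and 15% serum. The same loss with MLL1 present was given by 3 Mll2-KO libraries (4-OHT, as above) and 3 WT libraries (untreated), also at day 0. Day 4 cells had been differentiated with 1 µM retinoic acid in 10% serum. Loss of Mll2 and exposure to 4-OHT always came together, so their effects cannot be told apart in any comparison below. Nothing in the labels tells if replicate libraries came from separate cultures, and p-values therefore measured the spread between these samples, which may be technical.

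MLL1 and MLL2, encoded by Kmt2a and Kmt2b, are paralogous enzymes that methylate histone H3 at lysine 4, a mark of active and poised promoters. Each works in a complex with the shared subunits WDR5, RBBP5, ASH2L and DPY30 and with menin, and each carries a CXXC domain that binds unmethylated CpG. In embryonic stem cells MLL2 is known as the main enzyme for this mark at promoters kept poised by both H3K4 and H3K27 methylation, and germ cells also need it.

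The promoters of 3 genes with large falls, of a 2-cell-like gene, and of genes from the pair of pathways that rose are shown first, because the text returns to them. Each runs from 250 bases before to 50 bases after the RefSeq start on GRCm38.p6, 5′ to 3′ on the strand of the gene. For Magohb, Sycp1 and Sohlh2, capitals mark CpG, the dinucleotide that the CXXC domain binds.
Magohb: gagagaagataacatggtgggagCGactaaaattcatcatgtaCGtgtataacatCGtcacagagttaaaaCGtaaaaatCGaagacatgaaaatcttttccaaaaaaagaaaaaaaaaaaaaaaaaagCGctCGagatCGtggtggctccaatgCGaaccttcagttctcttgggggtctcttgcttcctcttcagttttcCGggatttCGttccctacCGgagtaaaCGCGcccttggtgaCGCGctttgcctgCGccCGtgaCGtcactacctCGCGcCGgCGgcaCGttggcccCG
Sycp1: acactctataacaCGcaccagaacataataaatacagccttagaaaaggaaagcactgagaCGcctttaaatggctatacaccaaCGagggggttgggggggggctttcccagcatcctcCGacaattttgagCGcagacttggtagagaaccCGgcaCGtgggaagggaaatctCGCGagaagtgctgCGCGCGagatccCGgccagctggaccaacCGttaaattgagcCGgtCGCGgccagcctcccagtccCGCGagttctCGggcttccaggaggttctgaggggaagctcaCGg
Sohlh2: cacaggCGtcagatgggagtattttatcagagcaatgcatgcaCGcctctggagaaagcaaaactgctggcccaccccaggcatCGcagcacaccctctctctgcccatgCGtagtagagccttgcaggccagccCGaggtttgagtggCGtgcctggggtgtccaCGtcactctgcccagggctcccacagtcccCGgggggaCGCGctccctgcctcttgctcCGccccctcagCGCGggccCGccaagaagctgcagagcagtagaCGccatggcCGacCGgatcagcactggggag
These windows were chr6:131293195-131293494 (minus strand), chr3:102936051-102936350 (minus strand) and chr3:55181794-55182093 (plus strand), with 25, 21 and 17 CpG. For Zscan4c capitals mark the TATA box (TATAAA), for Msmo1 and Cyp51 the CCAAT box, and for Chac1 and Atf3 the letters TTGCATC of the site bound by ATF4 with a C/EBP partner, each on either strand.
Zscan4c: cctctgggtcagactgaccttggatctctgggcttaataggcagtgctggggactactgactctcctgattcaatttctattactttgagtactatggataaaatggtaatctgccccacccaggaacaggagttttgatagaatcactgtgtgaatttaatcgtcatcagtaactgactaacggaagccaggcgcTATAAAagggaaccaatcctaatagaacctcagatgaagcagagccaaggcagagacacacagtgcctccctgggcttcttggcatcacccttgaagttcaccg
Msmo1: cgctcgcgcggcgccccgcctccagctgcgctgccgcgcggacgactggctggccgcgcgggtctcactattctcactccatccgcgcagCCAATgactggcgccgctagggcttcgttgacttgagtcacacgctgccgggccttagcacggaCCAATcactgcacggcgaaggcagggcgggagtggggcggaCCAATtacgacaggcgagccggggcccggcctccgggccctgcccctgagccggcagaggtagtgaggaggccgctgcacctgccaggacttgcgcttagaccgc
Cyp51: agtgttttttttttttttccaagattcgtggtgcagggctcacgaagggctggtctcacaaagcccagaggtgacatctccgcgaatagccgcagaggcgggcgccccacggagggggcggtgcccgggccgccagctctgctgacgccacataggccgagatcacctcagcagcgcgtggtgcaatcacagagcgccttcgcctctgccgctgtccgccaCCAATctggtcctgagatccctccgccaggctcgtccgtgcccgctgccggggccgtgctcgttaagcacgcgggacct
Chac1: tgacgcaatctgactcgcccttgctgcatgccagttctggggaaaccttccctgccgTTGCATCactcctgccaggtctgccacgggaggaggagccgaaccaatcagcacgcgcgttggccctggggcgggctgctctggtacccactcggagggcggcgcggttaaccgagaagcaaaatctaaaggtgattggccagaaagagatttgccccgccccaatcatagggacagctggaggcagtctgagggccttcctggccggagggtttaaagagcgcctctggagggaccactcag
Atf3: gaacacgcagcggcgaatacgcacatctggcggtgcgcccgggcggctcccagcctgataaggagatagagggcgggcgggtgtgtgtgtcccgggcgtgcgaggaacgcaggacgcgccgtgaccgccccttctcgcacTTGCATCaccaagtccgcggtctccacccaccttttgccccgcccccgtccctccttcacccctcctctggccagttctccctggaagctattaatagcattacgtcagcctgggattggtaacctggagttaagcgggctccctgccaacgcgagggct
They were chr7:11005495-11005794 (plus), chr8:64733529-64733828 (minus), chr5:4104648-4104947 (minus), chr2:119350992-119351291 (plus) and chr1:191183284-191183583 (minus). The Zscan4c window held 4 CpG, against 35 in that of Msmo1.

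The 6 libraries held 18.2 to 21.1 M reads in double-KO and 17.7 to 20.9 M in Mll1-KO, and 15758 to 16003 against 16334 to 16568 genes above 0. Libraries correlated at r = 0.985 to 0.990 within a group and 0.968 to 0.973 between groups, over 13984 genes on the log2 scale. The 7 stem cell markers summed to 83998 to 85932 normalized counts in double-KO and 82014 to 83860 in Mll1-KO. Of these, 3 of 7 were higher and 0 lower, beside 18.9% and 22% of all genes tested. Pou5f1, the core pluripotency factor, had 29882, 28941 and 28696 in double-KO and 33023, 30905 and 29601 in Mll1-KO. Primitive endoderm markers summed to 496 to 622 against 428 to 441 (2 of 6 higher), trophectoderm markers to 126 to 145 against 236 to 257 (1 of 4 tested higher and 1 lower), mesoderm markers to 33.7 to 38.7 against 54.0 to 65.9, neural markers to 505 to 578 against 480 to 591, and fibroblast markers to 82.5 to 84.8 against 71.3 to 103, with Dcn at 0 in all 6. The lower trophectoderm marker was Eomes (64.4 ± 11.1 against 187 ± 3.67), and of the longer list of 11 trophectoderm genes tested 3 were higher and 1 lower. In bulk samples, fewer cells of a type and less RNA per cell cannot be told apart. One library used for the side-by-side comparison stood apart: Mll2-KO replicate 3 held a summed level of 38304 for 21 cholesterol synthesis genes, against 25988 and 23346 in Mll2-KO replicates 1 and 2. That library also held the highest Mll2-KO sums of stress response genes (55519 against 46114 and 45298) and of lysosome genes (63867 against 55859 and 55134). Results on these lists in Mll2-KO are therefore given with and without it.

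Kmt2a had 31.6, 37.0 and 20.6 normalized counts in double-KO and 20.6, 25.4 and 43.0 in Mll1-KO, and 1381 ± 87.0 in Mll2-KO and 1089 ± 37.8 in WT (SD, n = 3 each). The double-KO and Mll1-KO libraries overlapped, and both lay far below those with Mll1. Kmt2b had 2565, 2798 and 2556 in double-KO, all below the 3305, 3131 and 3701 of Mll1-KO (log2 fold change -0.35 ± 0.06 (SE), adjusted p = 0.00018 by limma). Counts over the whole of Kmt2b do not show whether exons were removed, so they check nothing on the deletion. Changes here and below are differences in log2 of the normalized count plus 1, double-KO minus Mll1-KO unless said otherwise, which understate the change of genes with low counts. A gene counts as called when its adjusted p in limma (Benjamini-Hochberg) is under 0.05. Of 19 genes of the H3K4 methyltransferase complexes, 3 were called lower and 1 higher, against 22% and 18.9% of the 13984 genes tested. Besides Kmt2b, the shared subunits Dpy30 (1585 ± 25.4 in double-KO, 2220 ± 101 in Mll1-KO, -0.49) and Wdr5 (5182 ± 40.7 against 6454 ± 141, -0.32) fell, and Ash2l rose (5889 ± 341 against 4661 ± 115, 0.34).

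Magohb, which encodes a core protein of the exon junction complex and is known to need MLL2, was among the largest falls. It had 31.6, 25.3 and 31.8 normalized counts in double-KO and 215, 247 and 228 in Mll1-KO (-2.93 ± 0.17, adjusted p = 1.5e-10 by limma). No double-KO library came near an Mll1-KO library. Its paralog Magoh, on chromosome 4 and coding for almost the same protein, had 1661, 1553 and 1527 in double-KO against 2090, 2221 and 1984 in Mll1-KO (-0.41, adjusted p = 3.8e-05). The other core members moved by less than Magohb as well: Eif4a3, the RNA helicase of the complex, fell (4170 ± 83.2 against 5165 ± 259, -0.31), and so did Rbm8a (-0.30). Of the 13 exon junction and nonsense-mediated decay genes tested, 4 fell and 4 rose, beside 22% and 18.9% of all genes. Among the rises were the decay factors Upf1 (0.24) and Smg6 (0.41) and the outer subunit gene Casc3 (0.27). With MLL1 present Magohb had 40.9 ± 7.71 in Mll2-KO and 191 ± 13.8 in WT (-2.21), and the difference between the 2 effects was -0.71 (adjusted p = 0.067 by limma). At day 4 the same pair of genotypes differed by -4.45 in Magohb (adjusted p = 1.3e-11).

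**Figure D1:**
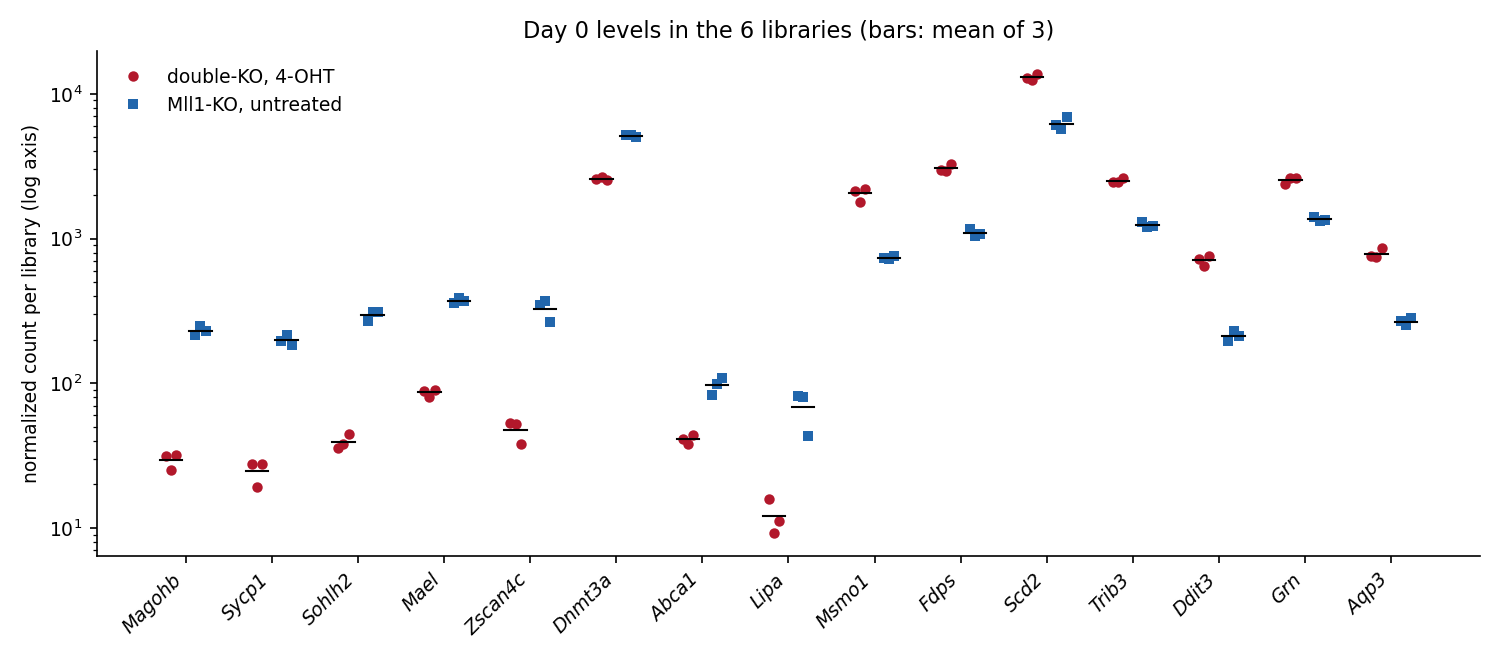
Normalized counts (log axis) of 15 genes in the 3 double-KO libraries (circles, left of each pair) and the 3 Mll1-KO libraries (squares, right) at day 0, with bars at the group means. Magohb, with 25.3 to 31.8 in double-KO and 215 to 247 in Mll1-KO, lies lower in double-KO, as do the next 7 genes, and the last 7 genes lie higher, with no overlap of the groups. Lack of overlap, found for 51.7% of all genes tested, was part of the rule that chose some of these genes.

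Over all genes, 5728 of 13984 were called (41%), 2645 higher and 3083 lower, so a call alone set few genes apart. Large changes were mostly falls: 785 genes (5.61%) were called at least 2-fold lower and 235 (1.68%) at least 2-fold higher, and 218 (1.56%) against 18 (0.129%) passed 4-fold. Under quantile scaling the counts at 2-fold were 512 lower and 378 higher. The falls sat on genes with few reads: the median level of the 785 was 11.3 in double-KO and 36.5 in Mll1-KO, and that of the 235 rises was 53.5 and 21.6, beside 375 and 370 for all genes tested. The median change of all genes was -0.015.

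Genes of the 2-cell-like state, a rare and passing state of stem cell cultures that resembles the 2-cell embryo, fell in every member tested. Dux, the transcription factor that starts this programme, had 0, 0 and 0.860 normalized counts in double-KO and 14.4, 14.6 and 7.59 in Mll1-KO (-3.37, adjusted p = 0.00018 by limma). Zscan4c had 53.3, 52.2 and 37.8 in double-KO and 346, 371 and 265 in Mll1-KO (-2.75 ± 0.21, adjusted p = 5.1e-09). All 15 members that passed the filter were called lower, each by more than 2-fold, with a median of -2.31 and a range of -3.37 to -1.62. Over all genes tested, 22% were called lower and 5.61% at least 2-fold lower. The filter kept a gene that was high in any group, 6 of the 21 members in the table did not pass it, and with a minimum of 50 normalized counts 7 were called lower. Zscan4b (29.8 ± 12.5 in double-KO, 215 in Mll1-KO), Zscan4d (22.3 against 140) and Zscan4a (28.9 against 168) moved with Zscan4c, but these are near-identical neighbours on chromosome 7, and how reads were shared among them is not given in the sources used here. Mll2-KO and WT, which share no library with the 2 groups above, showed the same direction: 14 of the 15 were lower in Mll2-KO, with a median of -2.27, beside 24.3% of all genes. The difference between the 2 effects was called for 0 of the 15, beside 9.13% of all genes. Without Mll2-KO replicate 3, 12 were lower (median -1.98) and 1 had a called difference. At day 4, 14 of 16 members tested were lower in double-KO than in Mll1-KO, beside 23.7% of all genes.

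Genes of meiosis fell in part. Sycp1, which encodes the transverse filament of the synaptonemal complex, had 27.6, 19.4 and 27.5 normalized counts in double-KO and 194, 217 and 183 in Mll1-KO (-2.96 ± 0.20, adjusted p = 9e-10 by limma). Tex11, an X-linked gene needed for chromosome synapsis, had 43.4, 58.1 and 53.3 in double-KO against 234, 283 and 220 in Mll1-KO (-2.23). For both genes the groups stood well apart, with every double-KO library below every Mll1-KO library. Hfm1, a meiotic helicase, was at 2.96, 0.842 and 0 against 19.6, 21.5 and 15.2 (-3.33). In all, 9 of 27 meiosis genes tested were called lower and 0 higher, beside 22% and 18.9% of all genes. Of these, 7 passed 2-fold, beside 5.61% of all genes, with Sycp2, Tex15, Meioc and Syce1 among them. The meiotic inducer Stra8 fell less (-0.50), and the recombinase Dmc1 had 279 in double-KO and 281 in Mll1-KO (-0.01, adjusted p = 0.953). The list had a median of -0.15.

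Members of the piRNA pathway, which silences transposons in germ cells, and germ cell regulators fell in part. Sohlh2, a helix-loop-helix factor of early germ cell differentiation, had 35.5, 37.9 and 44.7 normalized counts in double-KO and 271, 311 and 313 in Mll1-KO (-2.89 ± 0.16, adjusted p = 6.5e-11 by limma). Mael, a piRNA factor, had 88.8, 80.8 and 90.3 in double-KO and 356, 386 and 372 in Mll1-KO (-2.09). Both groups were tight and did not overlap. The RNA-binding protein gene Dazl (141 ± 15.6 in double-KO, 413 ± 34.5 in Mll1-KO, -1.55), the germ cell helicase gene Ddx4 (316 ± 35.5 against 616 ± 50.1, -0.96) and the X-linked Taf7l (27.0 ± 6.00 against 115 ± 5.39, -2.07) fell as well. Of 14 piRNA pathway genes tested, 9 fell and 2 rose (median -0.72), beside 22% and 18.9% of all genes, with Tdrd5 (-1.80) and Tdrd1 (-1.55) among the falls and Tdrd7 (0.71) and Tdrd12 (0.31) the rises. Of 15 genes of germ cell specification and identity, 8 fell and 2 rose, against the same shares. Ddx4 and Mael are among the falls in both lists, so the counts are not separate. The rises were Prdm1 (240 ± 26.3 against 128 ± 22.8, 0.91) and Tfap2c (1619 ± 124 against 1205 ± 53.8, 0.42), which start germ cell specification in the embryo, while Prdm14 (0.21, adjusted p = 0.091) and Dppa3 (-0.03, adjusted p = 0.913) did not pass. The 4 germ cell markers used for the libraries summed to 1329 to 1443 in double-KO and 2261 to 2546 in Mll1-KO. With MLL1 present the fall was smaller for some of these genes, with a difference of effects of -0.87 in Sohlh2 (adjusted p = 0.017 by limma), -0.98 in Mael, -1.05 in Tex11 and -1.24 in Taf7l. Among 9 oocyte and maternal-effect genes tested 4 fell, with 19 more below the filter. Khdc3, of the subcortical maternal complex, had 90.7, 99.3 and 98.9 in double-KO against 646, 459 and 424 in Mll1-KO (-2.37, adjusted p = 6.7e-06). Rpl10l, a copy of the ribosomal protein gene Rpl10 that takes its place in meiosis, fell too (304, 261 and 248 against 696, 748 and 675, -1.38), in a list where 18 of 85 ribosomal protein genes rose and 8 fell with a median of 0.04.

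**Figure D2:**
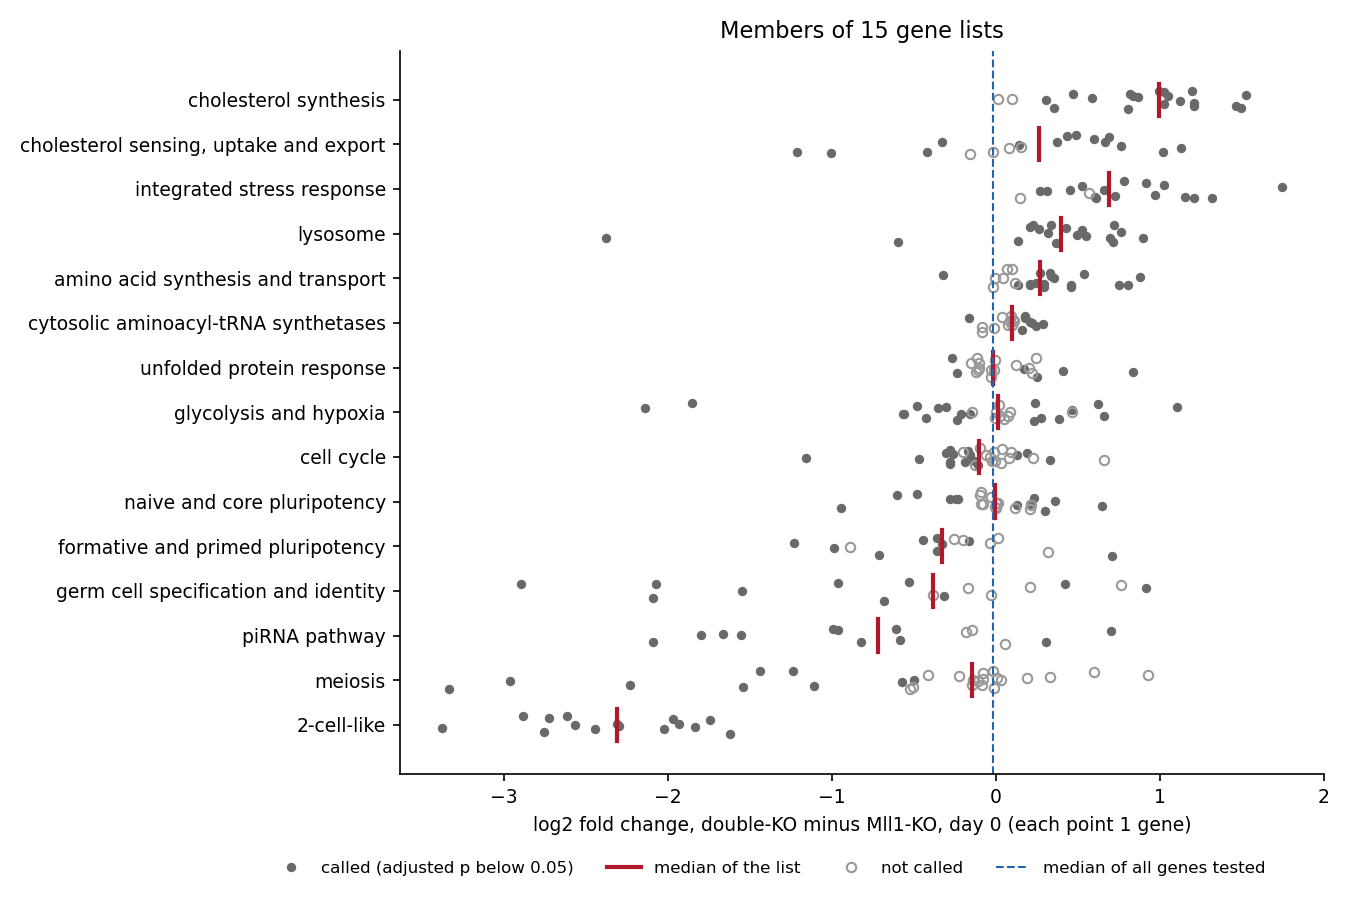
Log2 fold change, double-KO minus Mll1-KO at day 0, of the tested members of 15 gene lists (filled points, called at adjusted p below 0.05; open points, not called; thick red bars, list medians; dashed line, median of all genes tested). The 2-cell-like list lies lowest, with a median of -2.31, and the cholesterol synthesis list highest, with a median of 1.00.

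Genes of cholesterol synthesis rose nearly throughout. Msmo1, a C4 demethylating oxidase, had 2143, 1802 and 2203 normalized counts in double-KO and 736, 725 and 755 in Mll1-KO (1.47 ± 0.16, adjusted p = 7.8e-07 by limma). Fdps, which makes farnesyl pyrophosphate, had 2986, 2939 and 3292 in double-KO and 1163, 1035 and 1072 in Mll1-KO (1.49). Each double-KO library stood more than 2-fold above each Mll1-KO library in these 2 genes. Of the 21 genes, 19 were called higher and 0 lower, 10 of them past 2-fold, with a median of 1.00 beside -0.015 for all genes. Over all genes, 18.9% were called higher, 22% lower and 1.68% at least 2-fold higher. The 2 that were not called were Hsd17b7 (144 ± 8.32 in double-KO, 143 ± 6.10 in Mll1-KO) and Ebp (371 ± 31.7 against 347 ± 26.3), both of the late sterol steps. Of the sterol C14 reductase pair, Tm7sf2 rose most of all 21 (1.53) and Lbr by 0.36.

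Genes that sense and move cholesterol changed in both directions, with 10 of 18 higher and 4 lower, beside 18.9% and 22% of all genes tested. Insig1, whose protein holds the SREBP factors in the endoplasmic reticulum and whose gene is itself a target of theirs, had 1822, 1770 and 2046 normalized counts in double-KO and 921, 914 and 935 in Mll1-KO (1.02 ± 0.18, adjusted p = 0.00012 by limma). The factor genes rose as well, Srebf2 (5761 ± 184 against 3802 ± 16.1, 0.60) and Srebf1 (1033 ± 44.1 against 737 ± 65.0, 0.49). Among the falls, the cholesterol exporter gene Abca1 had 41.4, 37.9 and 43.8 in double-KO and 83.3, 99.6 and 108 in Mll1-KO (-1.21, adjusted p = 9.7e-05). Mylip, a ubiquitin ligase gene, was at 43.4, 44.6 and 46.4 against 77.2, 91.8 and 105, and the exporter gene Abcg1 fell by less (-0.42, adjusted p = 0.012). Apoe, which carries cholesterol in lipoproteins, rose (20053 ± 444 against 15506 ± 711, 0.37).

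Fatty acid synthesis moved with the sterol genes: 15 of 23 genes rose and 3 fell, beside 18.9% and 22% of all genes tested. Scd1, a fatty acid desaturase gene, had 2472, 2335 and 2413 normalized counts in double-KO and 858, 861 and 961 in Mll1-KO (1.43 ± 0.16, adjusted p = 1.3e-06 by limma), and Scd2 had 12811, 12515 and 13767 against 6069, 5733 and 6866 (1.07). Both desaturase genes separated the groups without overlap. Fasn, the fatty acid synthase gene, had 15890 ± 676 against 8905 ± 562 (0.84), and Fads2 rose too (1.06). G0s2, whose protein inhibits the lipase ATGL, was at 117, 114 and 97.1 in double-KO and 41.2, 23.4 and 18.6 in Mll1-KO (2.02). The largest of the 3 falls in the list was in the lipid chaperone gene Fabp5, with 25.6, 32.8 and 20.6 against 217, 194 and 198 (-2.92). Outside the list, among the largest falls of the comparison, lipoprotein lipase (Lpl) had 12.8, 23.6 and 8.60 against 83.3, 104 and 65.8 (-2.50), and the phospholipid acyltransferase gene Mboat1 14.8, 4.21 and 23.2 against 72.0, 64.4 and 77.6 (-2.52).

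**Figure D3:**
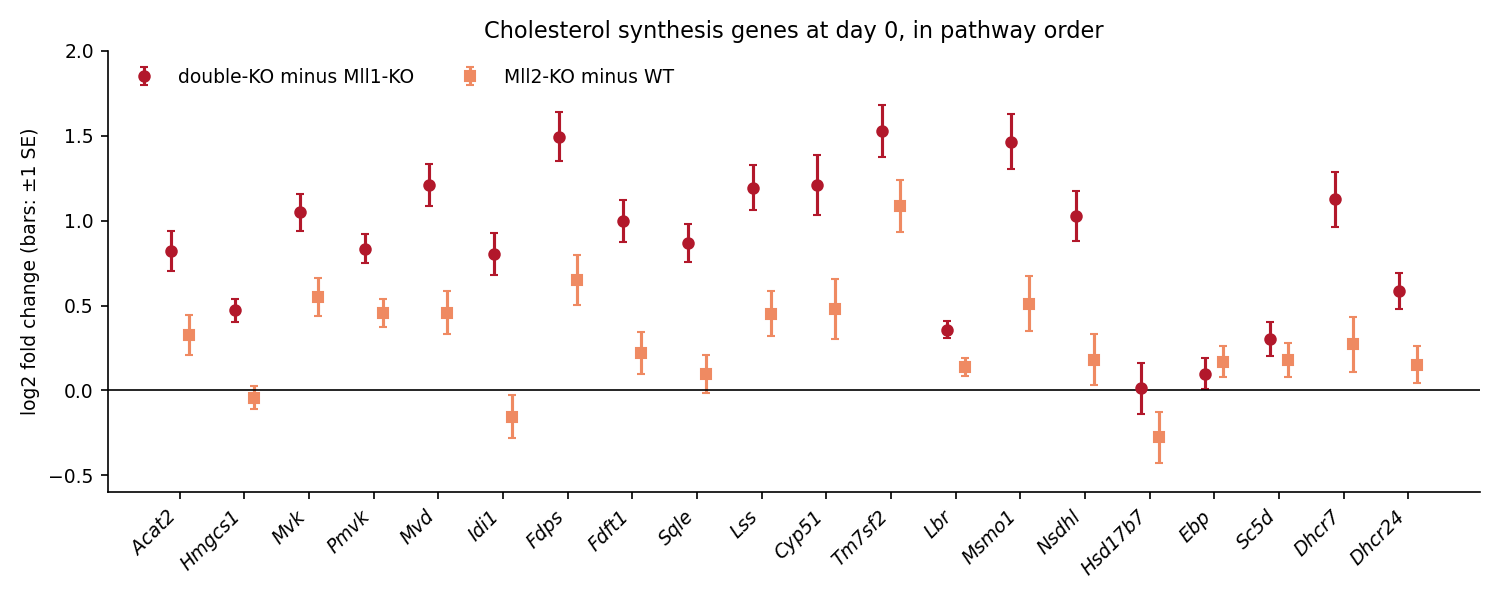
Log2 fold change (±1 SE) of 20 of the 21 cholesterol synthesis genes, from acetyl-CoA on the left to cholesterol on the right, for double-KO minus Mll1-KO (circles) and Mll2-KO minus WT (squares) at day 0. The circles of 18 of the 20 genes were called above 0, beside 18.9% of all genes tested, and the circle lies above the square for 19 of the 20.

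The rise of these genes was smaller with MLL1 present. Mll2-KO against WT called 10 of the 21 synthesis genes higher and 0 lower (median 0.22), and in 13 the effect without MLL1 was the higher one by the test of the difference, with 0 the other way, beside 4.42% and 4.71% of all genes. Without Mll2-KO replicate 3, the library with high sterol gene levels, 6 were higher and 4 lower in Mll2-KO than in WT (median 0.08), and 18 of 21 had a called difference. Insig1 shows the range, with 991, 948 and 2097 in Mll2-KO and 1484, 1660 and 1798 in WT. Its difference of effects was 1.41 (adjusted p = 0.00097 by limma), and 1.78 without that library. In Scd2 the difference was 1.39, and 1.71 without that library. The starting levels differed as well. Scd2 had 6069, 5733 and 6866 in Mll1-KO but 10220, 11711 and 12108 in WT, close to the 12811, 12515 and 13767 of double-KO. The 21 synthesis genes summed to 22053 or less in Mll1-KO, 23573 or more in WT and 36550 or more in double-KO. Double-KO against Mll1-KO gave 19 higher and 0 lower with or without that library in the fit. At day 4, 19 of the 21 were higher in double-KO than in Mll1-KO, beside 31.1% of all genes, with a median of 0.49.

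The integrated stress response, in which kinases that sense amino acid lack and other stress raise translation of the factor ATF4, rose in 16 of 18 genes and fell in 0 (median 0.69). Over all genes tested, 18.9% rose and 22% fell. Trib3, a pseudokinase gene and ATF4 target, had 2460, 2457 and 2634 normalized counts in double-KO and 1304, 1197 and 1212 in Mll1-KO (1.02 ± 0.08, adjusted p = 1.3e-08 by limma). Ddit3, the pro-apoptotic factor CHOP, had 728, 651 and 763 in double-KO against 197, 228 and 211 in Mll1-KO (1.75), and Atf3 had 150, 195 and 181 against 79.2, 72.2 and 73.4 (1.21). These groups did not overlap. Atf4 itself rose (11648 ± 312 against 8101 ± 256, 0.52), as did the stress hormone gene Gdf15 (176, 173 and 195 against 49.4, 102 and 74.2, 1.32) and the glutathione-degrading Chac1 (1168 ± 62.5 against 706 ± 59.8, 0.73). Sesn2 (0.15, adjusted p = 0.064) and Fgf21 (6.71 against 4.25 normalized counts) did not pass.

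Of 23 amino acid supply genes 16 rose and 1 fell (median 0.27), mostly by small steps. Day 0 counts for double-KO against Mll1-KO in this paragraph stand beside 18.9% of all genes higher and 22% lower. The neutral amino acid transporter gene Slc1a4 had 1514, 1398 and 1718 normalized counts in double-KO and 952, 860 and 832 in Mll1-KO (0.80 ± 0.08, adjusted p = 2.6e-07 by limma), the glycine transporter gene Slc6a9 rose by 0.75, and the arginine transporter gene Slc7a1 by 0.46. Phgdh, of serine synthesis, did not pass, with 6260 ± 68.2 against 5781 ± 378 (0.12, adjusted p = 0.058). Of 20 cytosolic aminoacyl-tRNA synthetase genes, 8 rose and 1 fell, with Gars (0.24) at 7618 ± 387 against 6432 ± 212. Targets of the unfolded protein response went both ways, with 4 of 20 higher, near the share of all genes, and 2 lower, below that share. The endoplasmic reticulum chaperone genes Hspa5 (11897 ± 482 against 14025 ± 770, -0.24) and Hsp90b1 (-0.27) fell, and Derl3 rose (0.84). With MLL1 present the median rise was larger: Mll2-KO exceeded WT in 16 of 18 stress genes (median 1.16) and in 22 of 23 amino acid genes (median 0.52). Over all genes tested, 22.8% were higher in Mll2-KO than in WT and 24.3% lower. Without Mll2-KO replicate 3, 15 of 17 stress genes and 21 of 23 amino acid genes were higher (medians 1.01 and 0.52). The difference of effects was called below 0 for 8 stress and 11 amino acid genes, and above 0 for 1 and 0, beside 4.71% and 4.42% of all genes. Without that library it was below 0 for 7 and 11, and above 0 for 2 and 0. Trib3 had 3714 ± 663 in Mll2-KO and 1056 ± 47.1 in WT, a difference of effects of -0.78 (adjusted p = 0.00018 by limma).

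Lysosomal genes moved together by small amounts: 16 of 18 rose and 2 fell, beside 18.9% and 22% of all genes, with a list median of 0.40. Grn, the progranulin gene, had 2397, 2631 and 2614 normalized counts in double-KO and 1418, 1328 and 1353 in Mll1-KO (0.90 ± 0.07, adjusted p = 5.1e-09 by limma). The hydrolase genes Glb1 (1227 ± 80.8 against 723 ± 15.9, 0.76) and Hexa (2421 ± 27.3 against 1473 ± 102, 0.72) and the peptidase gene Tpp1 (0.70) followed. The same 16 genes rose and the same 2 fell in Mll2-KO against WT (median 0.64), beside 22.8% and 24.3% of all genes. Without Mll2-KO replicate 3 the counts were also 16 and 2 (median 0.57). Lipa, the lysosomal acid lipase that frees cholesterol from its esters, was the exception by far: it had 15.8, 9.26 and 11.2 in double-KO, against 81.3, 80.0 and 43.0 in Mll1-KO (-2.38 ± 0.25, adjusted p = 5e-07). With MLL1 present Lipa had 52.3 ± 6.37 in Mll2-KO and 110 in WT, and the difference of effects was -1.31 (adjusted p = 0.024). The glucuronidase gene Gusb was the other fall among these 18 (-0.60), and Aga, a lysosomal enzyme gene that is not on the list, fell as well (42.2 ± 8.99 against 99.9 ± 16.5, -1.23).

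Core pluripotency genes changed little and in both directions, with 6 of 24 higher, 6 lower and a median of -0.004. These shares were near those of all genes tested (18.9% higher and 22% lower). Sox2 had 7752 ± 62.1 normalized counts in double-KO and 7744 ± 320 in Mll1-KO, and Nanog had 11175 ± 225 and 11897 ± 471 (-0.09, adjusted p = 0.088 by limma). Tbx3, a naive-state factor, rose (2704 ± 148 against 1731 ± 139, 0.64), while Utf1 (5572 ± 247 against 8479 ± 573, -0.60) and Gbx2 (1136, 1110 and 969 against 2112, 2191 and 1893, -0.95) fell. Of 15 genes of the formative state, the step between naive and primed cells, 8 fell and 1 rose, with a median of -0.33. The share of falls there was above the 22% of all genes. Dnmt3a, a de novo DNA methyltransferase, had 2594, 2669 and 2521 in double-KO and 5218, 5204 and 5030 in Mll1-KO (-0.99 ± 0.09, adjusted p = 3.4e-08), with every double-KO library far below every Mll1-KO library. Its relative Dnmt3b fell by 0.33, and the maintenance enzyme gene Dnmt1 had 7212 ± 41.1 against 6910 ± 189 (0.06, adjusted p = 0.30). Lef1, the Wnt-responsive factor, had 142, 168 and 120 against 349, 368 and 293 (-1.23). Sall2 was the single rise (0.71).

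Counts in signalling lists are set against 22% lower and 18.9% higher over all genes. Of 27 Wnt genes tested 8 fell and 1 rose, a share of falls near that of all genes, with Wnt5b (-1.20) and the receptor gene Fzd3 (157 ± 39.3 against 294 ± 15.4, -0.93) below Mll1-KO and the repressor gene Tcf7l1 above it (0.24). In the FGF and ERK list 11 of 26 fell and 4 rose, among them the immediate early gene Egr1 (382, 296 and 341 normalized counts in double-KO, 720, 810 and 717 in Mll1-KO, -1.14 ± 0.13, adjusted p = 1.6e-06 by limma) and Myc (-0.40). In the Nodal list 5 of 19 rose, near the share of all genes, and 7 fell: the DNA-binding partner gene Foxh1 rose (0.75) and the co-receptor gene Tdgf1 fell (17003 ± 628 against 23737 ± 1020, -0.48). Of 30 cell cycle genes 13 fell and 3 rose, by small amounts apart from cyclin E2. Ccne2 had 214, 235 and 219 in double-KO and 498, 508 and 487 in Mll1-KO (-1.16 ± 0.11, adjusted p = 1.4e-07), and Ccne1 fell by 0.47. Among the imprinted genes 14 of 32 fell and 5 rose, with H19 at 6.90, 8.42 and 7.74 against 39.1, 41.0 and 35.4 (-2.19), and Ndn at 41.9 ± 5.56 against 128 ± 8.27 (-1.60). Impact, which restrains the amino acid sensor kinase GCN2, rose (5222 ± 260 against 3044 ± 130, 0.78).

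Glycolysis and hypoxia genes differed between Mll2 loss without and with MLL1 in most members. In double-KO against Mll1-KO 8 of 28 rose and 11 fell, beside 18.9% and 22% of all genes, with a list median of 0.01. In Mll2-KO against WT 25 of 28 fell and 2 rose, beside 24.3% and 22.8% of all genes, with a list median of -1.07. The test of the difference was called in 22 of 28, each time with the effect without MLL1 the higher one, beside 4.42% of all genes. The count was also 22 without Mll2-KO replicate 3. Bnip3, a mitophagy gene induced by hypoxia, had 1121 ± 34.2 normalized counts in double-KO and 1504 ± 26.2 in Mll1-KO (-0.42), and 576 ± 24.7 in Mll2-KO and 4549 in WT (-2.97). Its level in Mll1-KO lay below that in WT. Tpi1, a glycolytic enzyme gene, had 7145 ± 8.85 in double-KO and 7128 ± 245 in Mll1-KO, and 3799 ± 348 in Mll2-KO and 12000 in WT. The direction turned in 6 members, which rose in double-KO and fell in Mll2-KO. Among these, Aldoc had 395, 419 and 455 in double-KO and 177, 203 and 209 in Mll1-KO (1.10 ± 0.16, adjusted p = 1.3e-05 by limma), but 292 ± 83.6 in Mll2-KO and 620 in WT (-1.10). Ndrg1 rose by 0.66 without MLL1, and had 425 in Mll2-KO against 1211 in WT with it. Ndufa4l2 had 54.2 ± 4.90 in double-KO, 35.3 ± 7.79 in Mll1-KO, 41.1 ± 6.30 in Mll2-KO and 494 in WT, with a difference of effects of 4.16 (adjusted p = 3.9e-09). The WT level was by far the highest of the 4. Outside the list, the circadian and hypoxia-linked repressor gene Bhlhe40 (759 ± 88.1 against 316 ± 12.7 without MLL1, 1.26; 611 ± 219 in Mll2-KO against 1724 in WT, -1.54) and the Nodal inhibitor gene Lefty1 (0.60 without MLL1, -1.25 with it) turned as well.

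**Figure D4:**
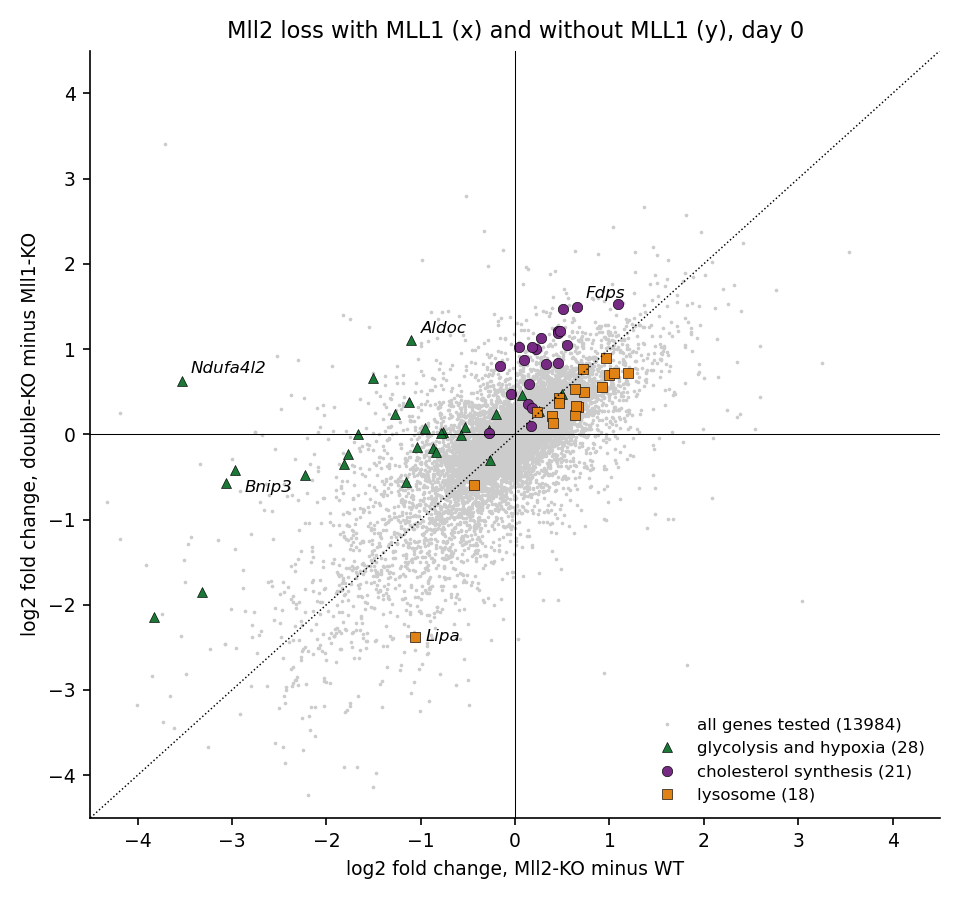
Log2 fold change for Mll2 loss with MLL1 (x, Mll2-KO minus WT) and without it (y, double-KO minus Mll1-KO) at day 0, for 13984 genes (grey; 7 lie outside the axes), with the dotted line at equal effects. Glycolysis and hypoxia genes (triangles) lie above the line (22 of 28 with a called difference), and so do cholesterol synthesis genes (circles; 13 of 21), while lysosome genes (squares) lie on or below it (7 of 18 with a called difference, all below).

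Mll2-KO against WT called 47.2% of all genes. Over all genes the 2 effects of Mll2 loss, which share no library, correlated at r = 0.68 across 13984 genes, which are not independent replicates. Of the 785 genes that fell at least 2-fold without MLL1, 70.1% were also called lower in Mll2-KO than in WT and 0.255% higher, beside 24.3% and 22.8% of all genes tested. Of the 235 rises, 63.0% were called higher there. The difference of effects was called for 1277 genes (9.13%), 618 with the effect without MLL1 the higher one and 659 with it the lower one. Among genes called in both tests with a mean of at least 50 in 1 group, Car4, a membrane carbonic anhydrase gene, fell without MLL1 (53.2 ± 9.03 in double-KO, 164 ± 21.4 in Mll1-KO, -1.61) but had 501 ± 110 in Mll2-KO and 506 in WT (-0.04). The amino acid transporter gene Slc43a3 did likewise (22.3 ± 10.9 against 81.6 ± 7.37 without MLL1, -1.94; 111 ± 13.8 in Mll2-KO and 123 in WT). Klb, a co-receptor for FGF, was at 8.05 ± 1.77 in double-KO and 19.4 ± 5.54 in Mll1-KO, with 260 ± 12.6 in Mll2-KO and 193 in WT.

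The largest rises with a mean of at least 50 in double-KO and no overlap between the groups were modest in level. Pga5, a pepsinogen gene, had 110, 111 and 106 normalized counts in double-KO and 35.0, 20.5 and 18.6 in Mll1-KO (2.15 ± 0.29, adjusted p = 9.5e-06 by limma). Aqp3, an aquaglyceroporin gene, had 755, 751 and 856 in double-KO and 268, 253 and 281 in Mll1-KO (1.55), and Dpysl2, a microtubule-binding axon guidance gene, 218, 239 and 232 against 71.0, 68.3 and 85.2 (1.61). The ubiquitin ligase gene Rnf213 (664 ± 79.5 against 233 ± 42.6, 1.52), the glycosyltransferase gene B4galnt2 (1.63), Apc2 (1.71) and Phyhd1 (1.77) were also among them. In counts rather than folds, the largest losses were in abundant genes: the constitutive chaperone gene Hspa8 had 85948, 85460 and 82278 in double-KO and 107820, 110720 and 108900 in Mll1-KO (-0.37, adjusted p = 0.00018), followed by Ptma (-0.36) and the nucleolar gene Ncl (-0.26). The largest gains were in the elongation factor genes Eef1a1 (239197 ± 6503 against 211823 ± 3568, 0.18) and Eef2 (81498 ± 3995 against 65489 ± 2143, 0.31).

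Some of the largest changes were in genes that share sequence or a locus with another gene. Eif3j1, a translation initiation factor gene, had 0, 1.68 and 0 normalized counts in double-KO and 1173, 2702 and 1530 in Mll1-KO, a ratio of read counts of 3026 (95% interval 837 to 24991, counting error only). Its near-identical copy Eif3j2 had 2661, 2509 and 2533 in double-KO and 1856, 555 and 1438 in Mll1-KO, so the sum of both was 2511 to 2661 in double-KO and 2968 to 3257 in Mll1-KO. One WT library also showed this split, with 6.13 for Eif3j1 and 2815 for Eif3j2. Amd1, which makes the polyamine precursor, varied within groups (91.7, 337 and 709 in double-KO, 2837, 3698 and 722 in Mll1-KO), but its sum with Amd2 was 4849 ± 135 and 5471 ± 240. Cers1 had 49.3, 109 and 68.8 in double-KO and no reads in Mll1-KO, at least 26.6-fold higher from a floor of 3 reads per library, and Gdf1, which lies within Cers1 on chromosome 8, had 31.6, 0 and 30.9 against 91.6, 90.8 and 89.4. Their sum was 96.7 ± 14.5 in double-KO and 90.6 ± 1.11 in Mll1-KO. How reads were shared within these pairs is not given in the sources used here, so the single values of these genes are uncertain.

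Falls were not spread evenly over the genome, a feature looked for after the values were seen. On the X chromosome 67 of 492 genes tested (13.6%) were called at least 2-fold lower, beside 5.29% of 13225 autosomal genes, and the X median was -0.11. The genes tested there had a median level in Mll1-KO of 258, against 381 on the autosomes, and the X held 2.75% of reads in each double-KO library and 2.73 to 2.77% in Mll1-KO libraries. Mll2-KO against WT gave 11.8% on the X and 4.98% on the autosomes. The X-linked germ cell genes Tex11 and Taf7l, described above, were among the 67. Fthl17f, a ferritin-like gene on the X, had 0.986, 0 and 0.860 normalized counts in double-KO and 31.9, 22.5 and 25.3 in Mll1-KO (-4.14), next to its near-identical copies Fthl17b (6.45 against 35.6) and Fthl17-ps1 (0.658 against 43.8).

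**Figure D5:**
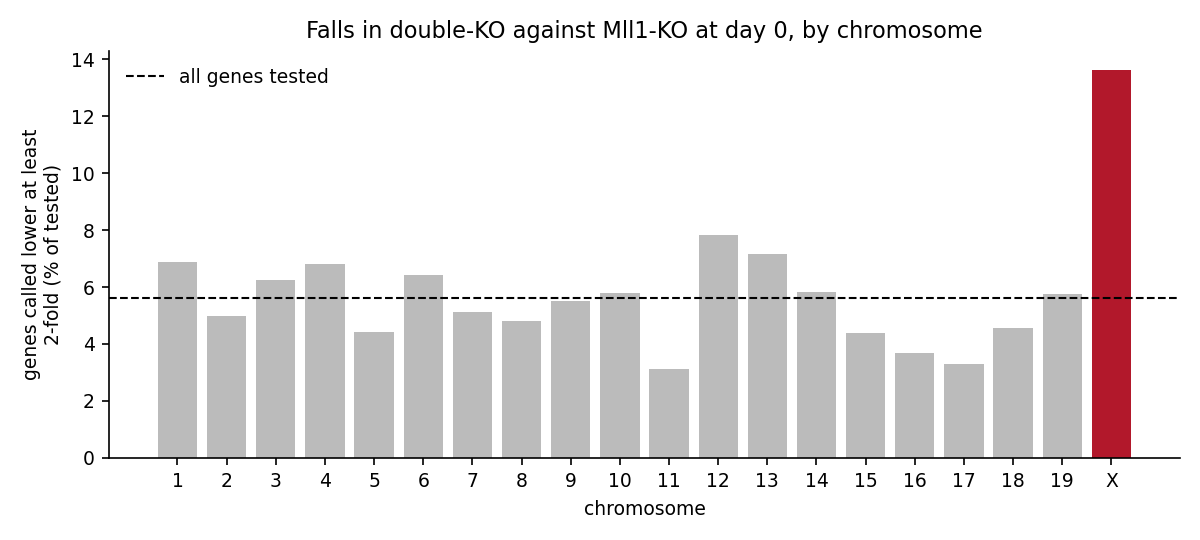
Share of tested genes called at least 2-fold lower in double-KO than in Mll1-KO at day 0, by chromosome, with a dashed line at the share over all genes tested (5.61%). The X, at 13.6%, stands highest, and chromosome 12, at 7.82%, is next.

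Genes next to each other among those tested also fell together, though untested genes can lie between them. In gene order among tested genes, 20 stretches of 3 or more adjacent genes all passed a 2-fold fall, with 76 genes in them, and no such stretch of rises was found. Falls of this size were also more common than such rises (5.61% against 1.68% of all genes tested). The longest held 9 genes on chromosome 12 (87514316 to 88324026), nearly all of them predicted genes. One stretch, on chromosome 10, was made of 4 predicted genes with the same value as each other in every library. Several stretches were clusters of near-identical copies, among them the Zscan4 genes (chr7:10794242-11402318) and the Usp17l genes, whose single values are uncertain. Others held unrelated genes. On chromosome 17 (49992257 to 51833290) Rftn1, Dazl, Plcl2, Tbc1d5 and Satb1 fell by 1.03 to 2.07. Plcl2 had 27.2 in double-KO and 115 in Mll1-KO, and Satb1, a chromatin organiser gene, 59.3 against 148. On chromosome 2 (63971507 to 65239403) Fign (16.8, 1.68 and 15.5 normalized counts in double-KO, 53.5, 56.6 and 57.3 in Mll1-KO), Grb14 and Cobll1 fell. On chromosome 8, 9 genes from Fam149a to Aga lay in 3 such stretches between 45336717 and 53523421. Among them the teneurin gene Tenm3 was at 230 against 789 and the deaminase gene Dctd at 235 against 646. Tenm3 and Aga, next to each other among tested genes, lie far apart, with Tenm3 ending at 48843951 and Aga starting at 53511727.

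Promoter letters of the genes that changed were compared with those of all genes tested, with no test. RefSeq promoter windows were at hand for 11056 of 13984 genes, for 585 of the 785 falls and for 180 of the 235 rises. The median ratio of observed to expected CpG was 0.602 for the falls and 0.591 for the rises, beside 0.759 for all genes, and 0.769 for called falls of any size. For the 150 falls of at least 4-fold with a window it was 0.525. Both sets past 2-fold also had lower levels than genes at large, as given above. The CCAAT box was found in 14 of 16 cholesterol synthesis promoters (87.5%), beside 39.4% of all promoters, and the Msmo1 and Cyp51 windows printed above each hold it. The sterol response motif TCACCCC was found in 1 of the 16 and in 5.07% of all promoters. The letters TTGCATC were in 6 of 18 stress response promoters (33.3%), Chac1 and Atf3 among them, and in 1.95% of all, and the E-box CACGTG in 6 of 15 lysosomal promoters (40%) and 10.3% of all. A TATA box was in 7 of 10 promoters of 2-cell-like genes, several of them near-identical copies, and in 7.08% of all promoters. Their median CpG ratio was 0.109, beside the 1.43 of Magohb, the 0.874 of Sycp1 and the 0.545 of Sohlh2. A match is a description of letters and no site.

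At day 4, after retinoic acid, double-KO against Mll1-KO called 7834 of 14303 genes (54.8%), 31.1% higher and 23.7% lower. Of the day 0 falls past 2-fold, 642 were tested at day 4 and 71.5% of them were called lower there too, and of the day 0 rises 43.2% of 192 were called higher. Sohlh2 (-2.51), Sycp1 (-2.03), Fabp5 (-3.15), Lipa (-2.19) and Dnmt3a (-1.03) were lower at both days, and Msmo1 (0.83) and Fdps (0.85) higher at both. Ddit3 had a day 4 change of 0.15 (adjusted p = 0.18 by limma) and Trib3 one of 0.34 (adjusted p = 0.02). Pluripotency genes, with 6 of 24 higher at day 0, were higher in 18 of 23 cases at day 4 (median 0.70), among them Pou5f1 (1.59). Endoderm genes were higher in 22 of 26 cases and Hox genes lower in 24 of 34. The change between the days was not tested.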

How the data were processed

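Strand-specific polyA RNA-seq libraries were compared by genotype and day, as the labels give them. The deposited signal values are gene counts that the authors had divided by a size factor for each library. Trim Galore 3.4, STAR 2.7.10a, RSEM 1.3.1 and DESeq2 1.34.0 and build mm10 are named per the submitters' processing notes. Every value divided by its column's smallest value was whole within 1e-06 (100% of values), which recovered read counts and depth. How RSEM assigned reads between near-identical genes is not given in the sources used here.

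Values were taken as log2 of the normalized count plus a pseudocount of 1. Genes at 10 or more in at least 3 of the 12 day 0 libraries were tested with limma 3.58.1 (R 4.3.3), with a trend and moderated variances over the 4 genotypes and Benjamini-Hochberg adjustment over all genes tested. Every adjusted p in the text is from limma. Day 4 was fitted alone. The difference of effects was the interaction term. edgeR 4.0.16 and DESeq2 1.42.0 on the recovered read counts were alternatives. All were tested on simulated data for double-KO against Mll1-KO at day 0. False calls made up 9.09% of calls with limma, 6.93% with edgeR and 10.8% with DESeq2. Each of these shares was above the adjusted p threshold used for calls. Of simulated 1.5-fold changes limma recovered 85.3%, edgeR 82.4% and DESeq2 83.8%. Each tool recovered 100% of the 2-fold and 4-fold changes. The simulation changed 68 genes by 1.5-fold, 71 by 2-fold and 61 by 4-fold, of 13614 genes, whereas 41% of genes were called in the data. Recovery was not measured separately for genes with few reads. These shares therefore do not describe the 785 falls past 2-fold, whose median level in Mll1-KO was 36.5. Replicate numbers did not pair the libraries.

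The genes, lists and promoters were chosen with earlier results of these data known. The rule for named genes took Kmt2a, Kmt2b and Magohb, the 15 largest rises and falls with a mean of at least 50 and no overlap, the 10 largest gains and losses in count, up to 3 rises and 3 falls with a mean of at least 20 from each list, and the 5 largest differences of effects each way. Called genes outside it, among them Atf4, Bnip3, Chac1, Cyp51, Dazl, Ddx4, Dux, Fads2, Hfm1, Lbr, Meioc, Rbm8a, Slc7a1, Srebf1, Srebf2, Stra8, Syce1, Tex15, Tpi1, Tpp1, Trib3, the Fthl17 genes and the neighbouring falls, were chosen after their values were seen. Promoters are from RefSeq on GRCm38.p6, and positions of genes from GENCODE on mm10. A few members of the sterol lists are counted in the lists but are not reported here by name.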

Additional observations from a re-analysis of the deposited data

Results flagged for a closer look

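The effect of Mll2 loss at day 0 differed without and with MLL1, by the interaction term in limma at an adjusted p below 0.05, for 60 of the genes named above. The difference is the log2 change of double-KO over Mll1-KO minus that of Mll2-KO over WT, so a positive value means a higher effect without MLL1. Over all genes tested, 9.13% had a called difference. Among sterol and fatty acid genes it was 1.41 for Insig1, 1.39 for Scd2, 1.10 for Scd1, 0.95 for Msmo1, 0.84 for Fdps, 0.63 for Fads2, 0.60 for Srebf1, 0.58 for Fasn and -0.65 for Apoe. In stress response and amino acid genes it came to -0.40 for Slc7a1, -0.52 for Atf4, -0.55 for Sesn2, -0.57 for Ddit3, -0.65 for Slc6a9, -0.66 for Chac1 and -0.78 for Trib3. For targets of the unfolded protein response the difference was 0.96 for Derl3, 0.28 for Hspa5 and 0.22 for Hsp90b1. For the constitutive chaperone gene Hspa8 it was 0.49. The values in glycolysis and hypoxia genes were 4.16 for Ndufa4l2, 2.55 for Bnip3, 2.21 for Aldoc, 2.16 for Ndrg1 and 1.66 for Tpi1. Among germ cell genes it was 0.87 for Prdm1, 0.76 for Tdrd12, 0.31 for Tfap2c, -0.78 for Stra8, -0.87 for Sohlh2, -0.98 for Mael, -1.05 for Tex11 and -1.24 for Taf7l. In lysosomal genes it came to -0.47 for Hexa and -1.31 for Lipa on the list, and -0.85 for Aga, which is not on it. For pluripotency and signalling genes the difference was 2.96 for Lef1, 1.86 for Lefty1, 0.70 for Myc, 0.68 for Egr1, 0.31 for Tdgf1, -0.20 for Nanog and -0.74 for Tbx3. The values in cell cycle genes were 0.53 for Ccne2 and 0.41 for Ccne1. Of the other genes, it was 2.80 for Bhlhe40, 1.54 for Amd2, 1.52 for Pga5, 1.21 for Dpysl2, 0.94 for Rnf213, 0.32 for Upf1, -0.56 for Dctd, -0.80 for Tbc1d5, -1.06 for Plcl2, -1.29 for H19, -1.57 for Car4, -1.60 for Klb, -1.78 for Slc43a3, -2.63 for Fthl17f and -12.54 for Eif3j1. Eif3j1 and Amd2 each have a near-identical copy, so their values are uncertain. Without Mll2-KO replicate 3, 3 of these calls were lost: the difference was -0.38 in Ddit3 (adjusted p = 0.052 by limma), 0.41 in Ccne2 (adjusted p = 0.065) and 0.28 in Tfap2c (adjusted p = 0.064).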

How the results depend on the processing

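No direction turned under any alternative run for the counts and named genes. With a minimum of 50 normalized counts, 133 genes were called at least 2-fold higher and 358 lower, and 7 genes of the 2-cell-like list were called lower, since fewer genes were tested. Quantile scaling gave 378 higher and 512 lower at 2-fold, and the cause was not tested. Calls for double-KO against Mll1-KO at day 0 numbered 5646 with edgeR, 5552 with DESeq2 and 5907 with the replicate block, which changed no other count by over 1.5 times. The replicate numbers did not pair the libraries (correlations of deviations -0.00646, -0.00284 and 0.000476), and 0 of 3 double-KO libraries matched best with its own number. Leaving out each double-KO or Mll1-KO library in turn gave 4654 to 5122 calls, 2151 to 2336 higher and 2503 to 2791 lower. At 2-fold it gave 213 to 235 higher and 678 to 760 lower. In the lists it gave 13 to 15 lower 2-cell-like genes, 9 meiosis genes each time and 8 to 9 piRNA genes. Higher were 18 to 19 cholesterol synthesis, 16 stress response, 14 to 16 amino acid and 14 to 16 lysosomal genes. For the other comparisons, leaving out each of their own libraries gave 5509 to 6212 calls between Mll2-KO and WT. It gave 862 to 1462 differences of effects and 7104 to 7415 calls at day 4. Mll2-KO replicate 3 enters double-KO against Mll1-KO only through the filter and the shared estimate of spread. Without it, more genes were called: 2921 higher and 3387 lower, with 238 and 807 at 2-fold. Higher were then 17 of 17 stress response and 17 of 23 amino acid genes. These counts and the list counts without that library were chosen after seeing the data. Calls for Abcg1, Amd1, Amd2, Eef1a1, Fthl17b, Ndufa4l2, Tcf7l1, Tdrd7, Tdrd12 and Wnt5b were lost under at least 1 alternative, in 36 cases over all named genes, beside 2645 with the same call and 21 in which a call was gained. For the named differences of effects the call was lost in 151 cases and kept in 1168. Single low-count genes are limited by depth: a gene with no reads in a library can lie anywhere below a floor of 3 reads.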

Other observations

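Chromatin and stress groups not described above mostly moved both ways between double-KO and Mll1-KO at day 0, beside 18.9% of all genes called higher and 22% lower. Of 35 Polycomb genes 6 rose and 11 fell (median -0.03), and of 16 DNA methylation genes 3 rose and 6 fell. Of 22 p53 targets 3 rose and 5 fell, of 21 apoptosis genes 4 rose and 5 fell, and of 10 NRF2 targets, which answer oxidative stress, 3 rose and 2 fell. Of 14 methionine and polyamine genes 3 rose and 6 fell, Amd1 with its near-identical copy among them. Of 16 interferon-stimulated genes 4 rose and 1 fell. Among 9 oestrogen receptor genes and targets 2 rose and 2 fell.

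Of 12 Hox genes tested 2 rose and 0 fell, with 27 more below the filter. Of 16 retinoic acid genes 0 rose and 3 fell, and of 23 endoderm genes 5 rose and 5 fell. Of 13 neural genes 1 rose and 4 fell, of 8 mesoderm genes 0 rose and 2 fell, of 11 trophectoderm genes 3 rose and 1 fell, and of 4 fibroblast genes 0 rose and 1 fell. In the Xlr and Rhox families of the X chromosome, 1 of 7 rose and 3 fell, and many members are near-identical copies. Of 36 nuclear genes for NADH dehydrogenase subunits, 5 rose and 6 fell.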
